A study of Mus musculus with 12 samples.

Results

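Atp6ap2, Pnisr, Nsfl1c, Tcl1b3, Sowahb, Rbm47, Arid5b and Lhfpl2 are 8 genes for which a probe set stood out between groups of newborn mouse bladders, transgenic or wild type. They were taken from 18193 genes that had at least 1 probe set with no other gene symbol. A probe set is a group of short probes on the array that together report 1 intensity. The 8 genes were measured by 25 probe sets, of which 21 were bright enough to be tested. Of the 8 genes, 3 had a single probe set and 5 had several, and the probe sets of 1 gene share its RNA and are not replicates.

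Whole bladders were taken at postnatal day 1 from FVB/N mice, an inbred strain, and all animals were labelled male. The SMGA/EGFP group (3 arrays) carried the green fluorescent protein EGFP driven by the promoter of smooth muscle gamma actin (Actg2), and the SMAA/EYFP group (3 arrays) carried the yellow fluorescent protein EYFP driven by the promoter of smooth muscle alpha actin (Acta2). The wild-type group (6 arrays) came from FVB/N females mated to control males, and the transgenic litters from FVB/N females mated to transgenic males, so that sire, litter and genotype cannot be told apart. RNA was not pooled, and nothing says how many litters gave the samples, so p-values measure only the spread between these samples.

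The members come from unrelated pathways. Atp6ap2 encodes an accessory subunit of the vacuolar ATPase, the proton pump that acidifies endosomes and lysosomes, and is also known as the prorenin receptor. Nsfl1c encodes p47, a cofactor that directs the ATPase p97 to membrane fusion. Pnisr encodes a serine- and arginine-rich protein of nuclear speckles, where splicing factors gather, and Rbm47 encodes an RNA-binding protein that regulates splicing and assists the cytidine deaminase Apobec1 in RNA editing. Arid5b encodes a DNA-binding protein that recruits the histone demethylase Phf2. Tcl1b3 belongs to the Tcl1 family, whose human founder binds the kinase Akt. Sowahb encodes an ankyrin repeat protein and Lhfpl2 a membrane protein of the tetraspan type.

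The members were chosen on these arrays, from their differences between SMGA/EGFP and wild type or between the transgenic groups, and in Lhfpl2 between SMAA/EYFP and wild type. Their values in those comparisons are therefore described and not tested. Differences are on the log2(intensity + 16) scale after quantile normalization, which understates changes of dim probe sets. A probe set passed where limma's adjusted p was below 0.05 over all 22518 probe sets tested. At that threshold the share of all probe sets that passed was 0.0622% for SMGA/EGFP against wild type, 0.0799% for SMGA/EGFP against SMAA/EYFP and 0% for SMAA/EYFP against wild type. Of the 21 member probe sets, 5 passed in the first of these comparisons, 4 in the second and 0 in the third. The transgenic groups lie in different runs of record numbers, described below. With the run as a block, Atp6ap2 still passed between them, at -1.34, whereas Nsfl1c at -1.27, Tcl1b3 at 1.43 and Arid5b at 0.99 did not. Tcl1b3 and Arid5b each passed there in 4 of the 12 fits that left out 1 array, Nsfl1c in 10 and Atp6ap2 in 12. When the transgenic groups were averaged and set against wild type, 0.00444% of all probe sets passed, 1 of them a member, Atp6ap2. Because the rule used these comparisons, nothing is read from the members' counts. Just inside the threshold lay Tcl1b3, at 0.97 ± 0.16 (SE) in SMGA/EGFP against wild type, and just outside it Rbm47, at 1.18 ± 0.20.

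Median intensity ran from 229.39 to 305.94 over the 12 arrays, and the number of arrays limits the precision. Wild type 4 went against its label. Its intensity of Xist, which shuts down an X chromosome in females, was 29604, against 80.1 to 250.4 on the other 11 arrays. The Y-linked gene Eif2s3y was at 26.7 there, against 3284 to 5096 on the others. With wild type 4 left out, the log2 differences of SMGA/EGFP from wild type were -1.33 for Atp6ap2, -0.86 for Pnisr, -0.93 for Nsfl1c, 1.01 for Tcl1b3, 1.18 for Sowahb, 1.25 for Rbm47 and 0.80 for Arid5b. That of SMAA/EYFP for Lhfpl2 was then -0.72. These differences are close to those with it, given below. Without it the calls of Tcl1b3 and Sowahb in SMGA/EGFP against wild type were lost, and 9 probe sets passed there in place of 14. The database record numbers of the arrays follow on without a gap, and were divided here by their order. SMGA/EGFP and wild type 1 to 3 make up the first run, SMAA/EYFP and wild type 4 to 6 the second run. No label says that these runs are batches. The smooth muscle markers Acta2, Actg2, Myh11, Tagln, Des and Cnn1 were all bright, with a summed intensity of 239177 to 313225 in SMGA/EGFP, 235526 to 314714 in SMAA/EYFP and 253811 to 305837 in wild type.

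The sequences of the probes were not used here. RefSeq's promoter windows (GRCm38.p6) show part of the DNA before the transcription starts of 1 member and its copies. Tcl1b3 lies on chromosome 12 among Tcl1b1, Tcl1b2, Tcl1b4 and Tcl1b5, and its only probe set carries the suffix _x_at, which marks probes that may match other sequences. The longest stretch before the transcription start that aligned to the other 4 copies without a gap is shown, 5′ to 3′ on the plus strand, with capitals at each base that is not the one in Tcl1b3.
Tcl1b3: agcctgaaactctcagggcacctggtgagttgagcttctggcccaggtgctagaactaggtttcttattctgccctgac
Tcl1b1: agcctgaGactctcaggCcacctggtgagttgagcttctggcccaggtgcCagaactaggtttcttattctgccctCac
Tcl1b2: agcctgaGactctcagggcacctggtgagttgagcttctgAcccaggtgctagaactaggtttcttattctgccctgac
Tcl1b4: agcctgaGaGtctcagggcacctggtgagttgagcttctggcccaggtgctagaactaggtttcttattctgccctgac
Tcl1b5: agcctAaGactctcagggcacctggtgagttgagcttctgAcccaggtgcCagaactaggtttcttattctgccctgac
These stretches of 79 bases lie at chr12:105190937-105191015 for Tcl1b3, chr12:105159598-105159676 for Tcl1b1, chr12:105146927-105147005 for Tcl1b2, chr12:105202316-105202394 for Tcl1b4 and chr12:105176252-105176330 for Tcl1b5. Tcl1b2 and Tcl1b4 each differed from Tcl1b3 at 2 bases (97.5% identity), and Tcl1b1 and Tcl1b5 each at 4 bases (94.9% identity). The stretch lies before the transcription start and was picked because it aligned without a gap. Its identity is therefore not that of the whole copies or of the transcripts that probes measure. Whether the array's probes match more than 1 of the transcripts was not tested.

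Atp6ap2 had the largest of the members' differences between SMGA/EGFP and wild type, and 1 of its 3 probe sets carried it. Probe set 1439456_x_at had intensities of 8160.3, 10208 and 10156 in SMGA/EGFP, 24822, 22047 and 23233 in SMAA/EYFP, and 22259.6 to 26416 (median 24610.2) in wild type. All 3 SMGA/EGFP arrays lay far below the other 9, and the SMAA/EYFP arrays overlapped with wild type. The log2 difference of SMGA/EGFP was -1.33 ± 0.08 (SE) from wild type, or 2.52-fold lower, and -1.27 ± 0.09 from SMAA/EYFP.

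The other Atp6ap2 probe sets did not show this. Probe set 1423662_at had 11929, 13431 and 12826.5 in SMGA/EGFP, 12223, 13414 and 13136.5 in SMAA/EYFP, and 11789.7 to 13517 (median 12205) in wild type. The groups overlapped, and SMGA/EGFP differed from wild type by 0.05 ± 0.07. Probe set 1437688_x_at, of the same _x_at type as the changed one, had 21365, 22833 and 20278 in SMGA/EGFP, 21267, 20697.5 and 23131 in SMAA/EYFP, and 20596 to 23719 (median 21986) in wild type. It differed by -0.03 ± 0.07, and its arrays overlapped too. All 3 probe sets were made from different source sequences, and RefSeq lists 1 curated transcript and 0 predicted ones for this gene on chromosome X. By mean level, the 3 probe sets lay at the 96.1 to 98.3 percentile of the array, near its bright end.

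Pnisr showed a similar split over 7 probe sets. Probe set 1453186_at had 2128, 1778 and 1946 in SMGA/EGFP, 3062, 3491 and 2854 in SMAA/EYFP, and 3179.6 to 3773 (median 3526) in wild type. The SMGA/EGFP arrays were again below all others. The difference was -0.85 ± 0.10 from wild type, or 1.80-fold lower, and -0.68 ± 0.12 from SMAA/EYFP.

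The 6 other Pnisr probe sets lay between -0.28 and 0.20 in SMGA/EGFP against wild type, and in each of them the arrays of these groups overlapped. Probe set 1453185_at was made from the same source sequence as the changed one, as were 1429537_at and 1429538_a_at, the last of which has probes shared by alternative transcripts of the gene. It had 1863, 897 and 1234 in SMGA/EGFP, 934, 992 and 1326 in SMAA/EYFP, and 1055 to 1556 (median 1252) in wild type, a difference of 0.01 ± 0.19 from wild type. Probe sets 1429537_at and 1429538_a_at were at 0.20 ± 0.17 and -0.16 ± 0.12. All 6 were brightest on SMGA/EGFP 1 within their group, as was the changed probe set. Among the 6 was 1437041_at, with 3337, 1752 and 2484 in SMGA/EGFP against 2521 to 3298 (median 2959.7) in wild type. RefSeq lists 4 curated and 4 predicted transcripts of Pnisr, on chromosome 4. Which of them each probe set reports was not tested.

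**Figure D1:**
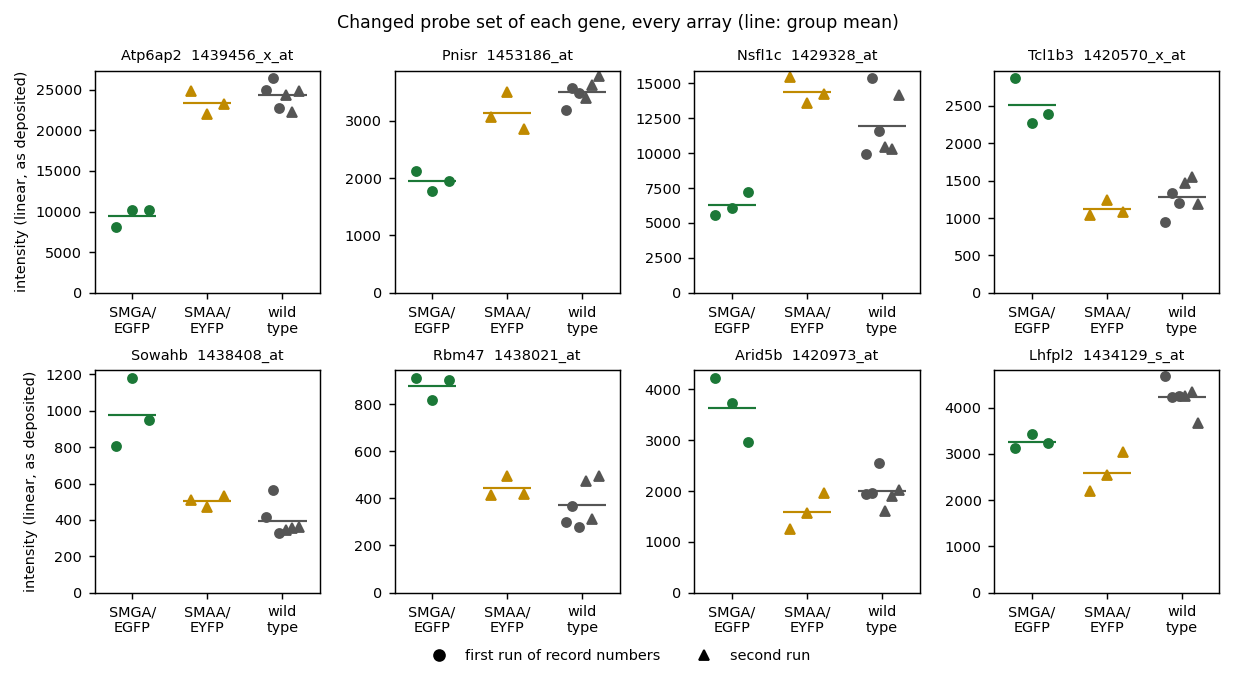
Linear intensity as deposited (y axis, from 0) of the changed probe set of each gene on every array, by group (x axis), with a line at the group mean and circles and triangles for the first and second run of record numbers. The SMGA/EGFP arrays stand below all others for Atp6ap2, Pnisr and Nsfl1c and above all others for Tcl1b3, Sowahb, Rbm47 and Arid5b, and for Lhfpl2 both transgenic groups lie below wild type.

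Nsfl1c was lower in SMGA/EGFP, but with 1 probe set on the array no second one bears on it. Probe set 1429328_at had 5585, 6106 and 7230.3 in SMGA/EGFP, 15406, 13570.1 and 14206.5 in SMAA/EYFP, and 9908 to 15387 (median 11004) in wild type. All 3 SMGA/EGFP arrays were below all others. The spread in wild type was wide, with arrays 2 and 6 at 15387 and 14173 and the other 4 between 9908 and 11548. The difference was -0.90 ± 0.13 from wild type, or 1.87-fold lower, and -1.18 ± 0.15 from SMAA/EYFP. The call against wild type was lost without SMGA/EGFP 1, SMGA/EGFP 2, wild type 3 or wild type 6, at values between -0.997 and -0.820 over the 12 fits that left out 1 array each.

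Tcl1b3 was higher in SMGA/EGFP, with the copies shown above beside it. Probe set 1420570_x_at had 2876, 2277 and 2390.4 in SMGA/EGFP, 1042, 1241 and 1086 in SMAA/EYFP, and 950.4 to 1551 (median 1272) in wild type. Every SMGA/EGFP array was above every other array. The difference was 0.97 ± 0.16 from wild type, or 1.96-fold higher, and 1.13 ± 0.18 from SMAA/EYFP. Against wild type it passed in 2 of the 12 fits that left out 1 array, those without wild type 1 or wild type 5, with values between 0.86 and 1.04. Tcl1b1, the nearest copy with a tested probe set, differed by -0.27 ± 0.43 (limma adjusted p = 0.900), so that its direction was not resolved.

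Sowahb was higher as well, also in its only probe set. Probe set 1438408_at had 808, 1179.9 and 947 in SMGA/EGFP, 509, 468 and 534 in SMAA/EYFP, and 328 to 566 (median 357) in wild type. SMGA/EGFP lay above all other arrays, and SMAA/EYFP overlapped with wild type only through wild type 2, at 566. The difference was 1.22 ± 0.18 from wild type, or 2.34-fold higher, and 0.82 ± 0.20 from SMAA/EYFP. The call against wild type was lost when wild type 3, 4 or 6 was left out, and when SMGA/EGFP 2 or 3 was, with values between 1.06 and 1.40.

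Rbm47 differed in 1 of its 2 tested probe sets. Probe set 1438021_at had 911, 816 and 902 in SMGA/EGFP, 415, 495 and 418 in SMAA/EYFP, and 280.5 to 493.1 (median 340.4) in wild type. The SMGA/EGFP arrays stood above the other 9, with a difference of 1.18 ± 0.20 from wild type, or 2.27-fold higher, and 0.87 ± 0.23 from SMAA/EYFP. Probe set 1423411_at, made from another source sequence, had 693, 1025 and 1177 in SMGA/EGFP, 904, 1262 and 1519 in SMAA/EYFP, and 831 to 1306 (median 896) in wild type. Here the groups overlapped, at -0.06 ± 0.21 from wild type. The third probe set, 1423412_at, was below the filter, at 52.8 to 81.8 in SMGA/EGFP, 36.2 to 103 in SMAA/EYFP and 13.9 to 107 in wild type. RefSeq lists 4 curated and 3 predicted transcripts for Rbm47, on chromosome 5.

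Arid5b differed in more than 1 probe set. Probe set 1420973_at had 4224.5, 3732 and 2974 in SMGA/EGFP, 1244, 1563 and 1968 in SMAA/EYFP, and 1611 to 2551 (median 1954) in wild type. SMGA/EGFP was above all other arrays, at 1.19 ± 0.20 over SMAA/EYFP, or 2.29-fold higher, and 0.87 ± 0.17 over wild type. Probe set 1434283_at, the brightest, had 17675, 14761 and 13435.5 in SMGA/EGFP, 7193, 9148 and 9516 in SMAA/EYFP, and 7965 to 12642 (median 11373.5) in wild type. Its SMGA/EGFP arrays did not overlap with either group, at 0.84 ± 0.18 over SMAA/EYFP and 0.54 ± 0.15 over wild type. Probe set 1442176_at had 473, 438 and 307 in SMGA/EGFP and 219, 201 and 298 in SMAA/EYFP, which did not overlap (0.60 ± 0.24), while wild type, at 241 to 443 (median 335), overlapped with both.

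The remaining Arid5b probe sets, 1420972_at and 1458238_at, were below the filter, between 54.6 and 280.1 over all arrays. The first of them was made from the same source sequence as the changed probe set. The 3 tested probe sets ran the same way in each of the 3 comparisons between 2 groups over all arrays. Against wild type 1 to 3 alone, 1442176_at was at 0.02 ± 0.22 in SMGA/EGFP. There 1420973_at was at 0.76 ± 0.19 and 1434283_at at 0.35 ± 0.15. Of the Arid5b probe sets only 1420973_at passed, between the transgenic groups. In SMGA/EGFP it shifted further from wild type than the other tested probe sets, as given below. These comparisons chose the gene, so whether Arid5b changed in 1 probe set or in several was not tested.

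In Lhfpl2 both transgenic groups were lower in value than wild type, but none of its probe sets passed in any comparison. Whether it changed in 1 probe set or in several was likewise not tested. Probe set 1434129_s_at had 3121, 3431 and 3233 in SMGA/EGFP, 2201, 2549.9 and 3044 in SMAA/EYFP, and 3671 to 4684 (median 4255) in wild type. All 6 transgenic arrays lay below all 6 wild-type arrays, at -0.38 ± 0.11 in SMGA/EGFP and -0.72 ± 0.11 in SMAA/EYFP, the second of which is 1.64-fold lower. The suffix _s_at marks probes shared by transcripts of several genes. Probe set 1434130_at had 1018, 1305 and 1529.6 in SMGA/EGFP, 925, 1187 and 1228 in SMAA/EYFP, and 1386 to 1734 (median 1578) in wild type. SMAA/EYFP lay below wild type without overlap (-0.49 ± 0.15), and SMGA/EGFP overlapped (-0.34 ± 0.15).

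Probe set 1454847_at of Lhfpl2 had 1599.7, 1551 and 1921 in SMGA/EGFP, 1564, 1761 and 1551 in SMAA/EYFP, and 1610.3 to 2424 (median 2091.5) in wild type. Both groups overlapped with wild type, at -0.31 ± 0.12 and -0.34 ± 0.12. These 3 probe sets were made from 1 source sequence, so their common direction is not independent support. The dim 1443185_at was below the filter, at 183 to 224 in SMGA/EGFP, 77.9 to 209.6 in SMAA/EYFP and 130.3 to 315 in wild type.

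**Figure D2:**
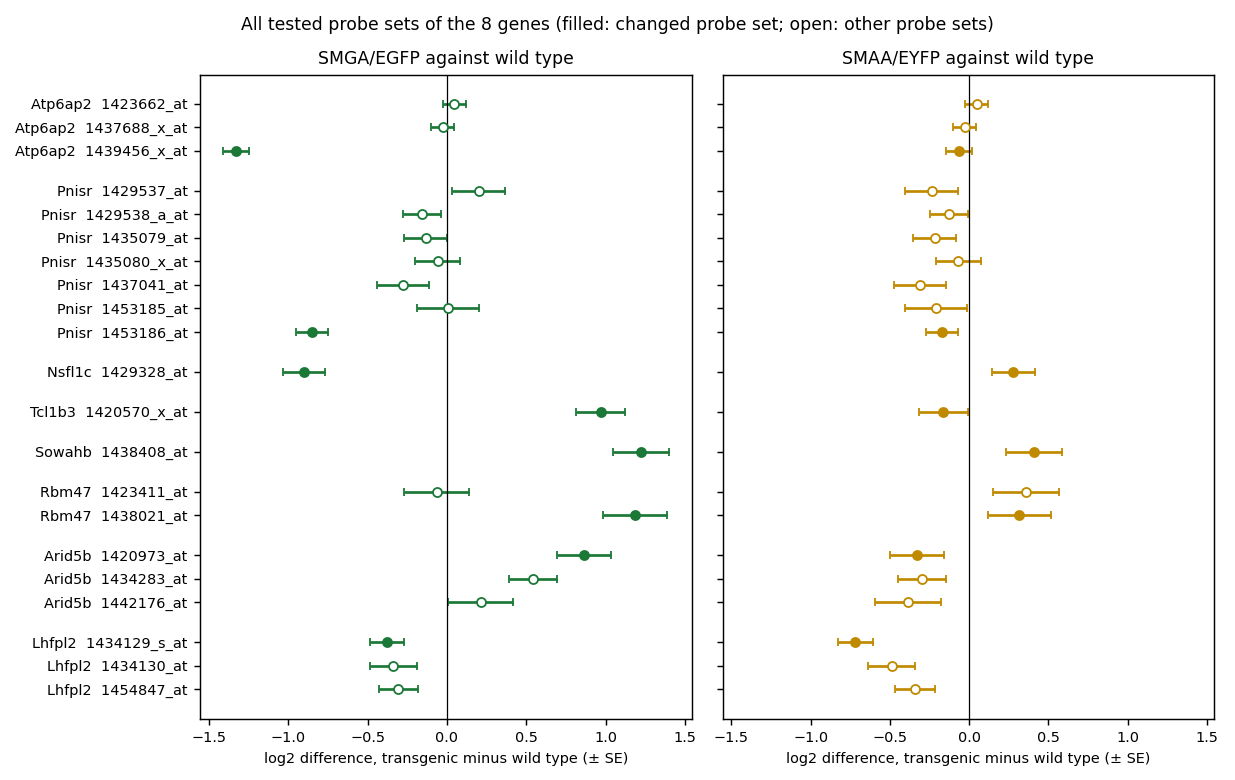
Log2 difference from wild type (x axis, ± SE) of all 21 tested probe sets (rows, by gene), in SMGA/EGFP at left and SMAA/EYFP at right, with filled points for the changed probe set of each gene and open points for its others. At left the filled point stands apart from the open ones for Atp6ap2 (-1.33 against 0.05 and -0.03), Pnisr and Rbm47, while the points of Arid5b (0.21 to 0.87) and Lhfpl2 (-0.38 to -0.31) lie on the same side of 0.

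Over the 21 probe sets, 9 did not overlap between SMGA/EGFP and wild type, where 2.62% of all probe sets did not. Between SMAA/EYFP and wild type 2 did not overlap, both of Lhfpl2, with a background of 3.02%. Between the transgenic groups 10 did not overlap, with a background of 14.2%. Between both transgenic groups together and wild type 1 did not overlap, with a background of 0.182%. The rule used these comparisons, and the comparisons share arrays.

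Atp6ap2, Pnisr, Nsfl1c, Tcl1b3, Sowahb and Rbm47 were not chosen from SMAA/EYFP against wild type, although that comparison shares its wild-type arrays with the one that chose them. It also shares the SMAA/EYFP arrays with the comparison between the transgenic groups, in which Atp6ap2, Nsfl1c and Tcl1b3 passed as well. Of the 15 tested probe sets of these 6 genes, 0 passed (limma, adjusted p = 0.991 to 0.995), and 1 had an unadjusted p below 0.05, that of Sowahb at 0.41 ± 0.18 (unadjusted p = 0.0374, adjusted p = 0.991). Over all probe sets 1082 (4.81%) had an unadjusted p below 0.05 and 0 passed. The 15 differences ran from -0.31 to 0.41, with 5 higher and 10 lower. Those of the changed probe sets were -0.06 ± 0.08 for Atp6ap2, -0.17 ± 0.10 for Pnisr, 0.28 ± 0.13 for Nsfl1c, -0.16 ± 0.16 for Tcl1b3 and 0.32 ± 0.20 for Rbm47. Arid5b was chosen from the comparison between the transgenic groups, which uses the SMAA/EYFP arrays, so its 3 values against wild type, -0.33, -0.30 and -0.39, are a description. Lhfpl2 was chosen with the same arrays, and its 3 probe sets, at 0.34 ± 0.13, 0.15 ± 0.17 and 0.03 ± 0.14 in SMGA/EGFP against SMAA/EYFP, are likewise described and not tested.

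Within an array, the mean log2 level of the gene's other tested probe sets can be subtracted from that of the changed probe set. The difference takes out a change that is equal in all probe sets of the gene. It does not take out a change to which they respond unequally, so a shift need not be particular to 1 probe set. The size of this value depends on the probes, so that only its shift between groups is read. For Atp6ap2 it was -0.93, -0.78 and -0.69 in SMGA/EGFP, 0.57, 0.41 and 0.42 in SMAA/EYFP, and 0.43 to 0.64 in wild type. SMGA/EGFP stood apart, with a mean of -0.80 ± 0.12 against 0.54 ± 0.07 in wild type (SD, n = 3 and 6). For Pnisr it was -0.45, 0.02 and -0.12 in SMGA/EGFP, 0.75, 0.72 and 0.39 in SMAA/EYFP, and 0.38 to 0.86 in wild type.

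For Rbm47 the value was 0.43, -0.32 and -0.37 in SMGA/EGFP, -1.03, -1.30 and -1.81 in SMAA/EYFP, and -1.60 to -0.77 in wild type, so that its SMGA/EGFP arrays stood above the rest. In Arid5b the value was 0.67, 0.53 and 0.48 in SMGA/EGFP, -0.04, 0.12 and 0.19 in SMAA/EYFP, and -0.22 to 0.22 in wild type. In Lhfpl2 it overlapped between SMGA/EGFP (0.91 to 1.36) and wild type (1.14 to 1.33), and was lower in SMAA/EYFP (0.81 to 1.12) without overlap. The changed probe set is the one of smallest p in these comparisons, so its distance from the gene's other probe sets there follows in part from the choice, and it is given as a description with no test.

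The same measure was tested in SMAA/EYFP against wild type for Atp6ap2, Pnisr and Rbm47, by two-sided exact permutation tests on the group means, adjusted over the 3 tests. SMAA/EYFP differed from wild type by -0.07 for Atp6ap2 (exact p = 0.214, adjusted 0.643), 0.03 for Pnisr (exact p = 0.869, adjusted 0.869) and -0.04 for Rbm47 (exact p = 0.869, adjusted 0.869). With 3 arrays against 6 the smallest possible p is 0.0119. The changed probe set had been picked by its smallest p over comparisons that include these arrays. For each of the 3 genes that p lay in SMGA/EGFP against wild type, which shares the wild-type arrays. The tests are therefore not independent of the choice, and no conclusion is drawn from them.

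**Figure D3:**
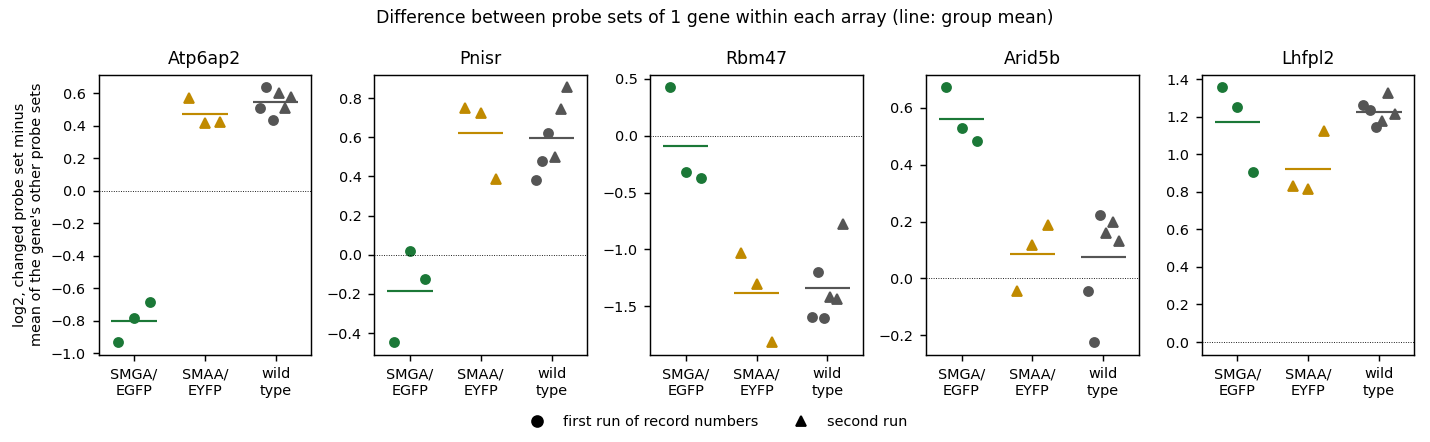
Log2 level of the changed probe set minus the mean of the gene's other tested probe sets on each array (y axis), by group (x axis), with a line at the group mean and circles and triangles for the first and second run of record numbers. The SMGA/EGFP arrays lie apart from all others for Atp6ap2 (-0.93 to -0.69), Pnisr, Rbm47 and Arid5b, and overlap with wild type for Lhfpl2.

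The 2 runs of record numbers allow each transgenic group to be set against the 3 wild-type arrays of its own run. Against wild type 1 to 3, SMGA/EGFP was at -1.37 ± 0.10 for Atp6ap2, -0.81 ± 0.12 for Pnisr and -0.95 ± 0.16 for Nsfl1c. It was at 1.12 ± 0.17 for Tcl1b3, 1.14 ± 0.21 for Sowahb and 1.43 ± 0.20 for Rbm47. For Arid5b it was at 0.76 ± 0.19 in the changed probe set and, less than over all arrays, at 0.35 ± 0.15 in 1434283_at and 0.02 ± 0.22 in 1442176_at. In that fit Atp6ap2, Pnisr, Tcl1b3 and Rbm47 passed, and Nsfl1c and Sowahb did not. Wild type itself differed between the runs (first minus second) by -0.49 ± 0.20 for Rbm47 1438021_at, 0.40 ± 0.22 for Arid5b 1442176_at, 0.38 ± 0.15 for Arid5b 1434283_at and -0.30 ± 0.17 for Tcl1b3. For the changed probe sets of Atp6ap2 and Pnisr it differed by 0.07 ± 0.10 and -0.07 ± 0.12. Against wild type 4 to 6, Lhfpl2 1434129_s_at was at -0.66 ± 0.13 in SMAA/EYFP.

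Relatives and partners of the members were read beside them. Over 10 lists of them, 0 of 89 tested genes passed in any of the 4 comparisons (limma). Of all probe sets 0.0799% or less did, so that 0 of 89 says little about these genes. In SMGA/EGFP against wild type, 3 of 89 (3.37%) had an unadjusted p below 0.05, where 6.94% of all probe sets did. The same count was 4 of 89 (4.49%) in SMAA/EYFP against wild type, where 4.81% did, and 3 of 89 (3.37%) between the transgenic groups, where 9.32% did. Of the vacuolar ATPase list, 22 of 24 genes were on the array and 16 were tested. Their median difference was -0.01 in SMGA/EGFP against wild type (7 higher, 9 lower) and 0.03 in SMAA/EYFP (12 higher, 4 lower), where the median of all probe sets was -0.01 and 0.00. The smallest p in SMGA/EGFP belonged to Atp6v0a2, a membrane subunit, at -0.34 ± 0.14 (limma adjusted p = 0.712), and Atp6v1g1, a stalk subunit, at 0.12 ± 0.09 (limma adjusted p = 0.797). Of the renin-angiotensin genes 4 were tested, with a median of 0.11, and Ace, the angiotensin-converting enzyme, was at 0.23 ± 0.29 and Agtr1b, an angiotensin receptor, at 0.20 ± 0.24.

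Of p97 and its cofactors, the partners of Nsfl1c, 19 genes were tested, with a median of 0.03 in SMGA/EGFP against wild type (12 higher, 7 lower). Ubxn4 and Yod1, which bind p97 in protein quality control, were at 0.18 ± 0.08 and 0.28 ± 0.13 (limma adjusted p = 0.718 for each). Of the SR and SR-related splicing proteins, the class of Pnisr, 23 were tested, with a median of -0.01 (11 higher, 12 lower). Srsf3 and Tra2a, both splicing regulators, were at -0.16 ± 0.08 and -0.23 ± 0.12.

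Of the ARID family with Phf2, 13 genes were tested, with a median of 0.09 (9 higher, 4 lower). Among the higher ones is Kdm5d, a Y-linked histone demethylase, at 1.03 ± 0.83, whose intensity was 28.0 on wild type 4 and 938 to 1465 on the other 11 arrays. Without it the median was 0.06 (8 higher, 4 lower). Jarid2, a subunit of the Polycomb repressive complex, was at 0.35 ± 0.15 (limma adjusted p = 0.718), and Arid1b, a subunit of a chromatin remodelling complex, at 0.24 ± 0.13. Of the relatives of Rbm47 and epithelial splicing factors, 6 were tested, with a median of 0.03. Esrp2 and Esrp1, which set epithelial splicing, were at 0.20 ± 0.11 and 0.20 ± 0.16.

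The other lists held 2 tested genes each. Mtcp1, a relative of Tcl1b3, was at -0.04 ± 0.17 in SMGA/EGFP, and the Akt kinases Akt1 and Akt2 at -0.12 ± 0.10 and 0.08 ± 0.12. Sowaha and Sowahc, of the family of Sowahb, were at 0.41 ± 0.27 and -0.10 ± 0.17. Lhfp and Lhfpl3, of the family of Lhfpl2, were at -0.06 ± 0.10 and 0.54 ± 0.35 in SMGA/EGFP and at -0.12 ± 0.10 and 0.16 ± 0.35 in SMAA/EYFP.

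Genes beside the members on their chromosomes did not pass either. For each member, the 10 nearest genes with a tested probe set on each side were read. For every member 0 of 20 passed when either transgenic group was set against wild type or against the other (limma). Of all probe sets 0.0799% or less passed there, so that 0 of 20 says little about the neighbours. At an unadjusted p below 0.05, 0 to 4 of 20 were found per member and comparison. The highest count in SMGA/EGFP against wild type was 4 of 20, for Arid5b, where 6.94% of all probe sets were below it. Between the transgenic groups it was 4 of 20, for each of Tcl1b3, Arid5b and Lhfpl2, where 9.32% were. For SMAA/EYFP against wild type it was 2 of 20, for Tcl1b3, where 4.81% were. In SMGA/EGFP against wild type, the neighbours of Atp6ap2 had a median of -0.03 and ran from -0.37 to 0.44, and those of Pnisr had a median of -0.12 and ran from -0.37 to 0.25. The nearest on each side were Bcor (-0.08 ± 0.18) and 1810030O07Rik (-0.10 ± 0.13) for Atp6ap2, and Usp45 (-0.25 ± 0.18) and Coq3 (-0.19 ± 0.17) for Pnisr. Nanp (-0.10 ± 0.09) and Fkbp1a (-0.08 ± 0.06) stood beside Nsfl1c.

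The members were chosen for their differences, so they are not ranked among their neighbours. Those of Sowahb ran from -0.57 to 0.53 in SMGA/EGFP against wild type, with Shroom3 at 0.35 ± 0.25 and Septin11 at -0.13 ± 0.14 next to it. Those of Rbm47, on the same chromosome 5, ran from -0.33 to 0.34, with N4bp2 at -0.08 ± 0.08 and Apbb2 at -0.09 ± 0.11. Those of Arid5b, on chromosome 10, ran from -0.40 to 0.54, with Ado at -0.19 ± 0.10 and Cabcoco1 at -0.18 ± 0.24. Those of Tcl1b3 ran from -0.63 to 0.41, with D430019H16Rik, on the side away from Tcl1b1, at 0.41 ± 0.31. Those of Lhfpl2, on chromosome 13, ran from -0.50 to 0.20 in SMAA/EYFP against wild type. In SMGA/EGFP Arsb was at -0.07 ± 0.14 and Scamp1 at 0.07 ± 0.12 beside it.

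**Figure D4:**
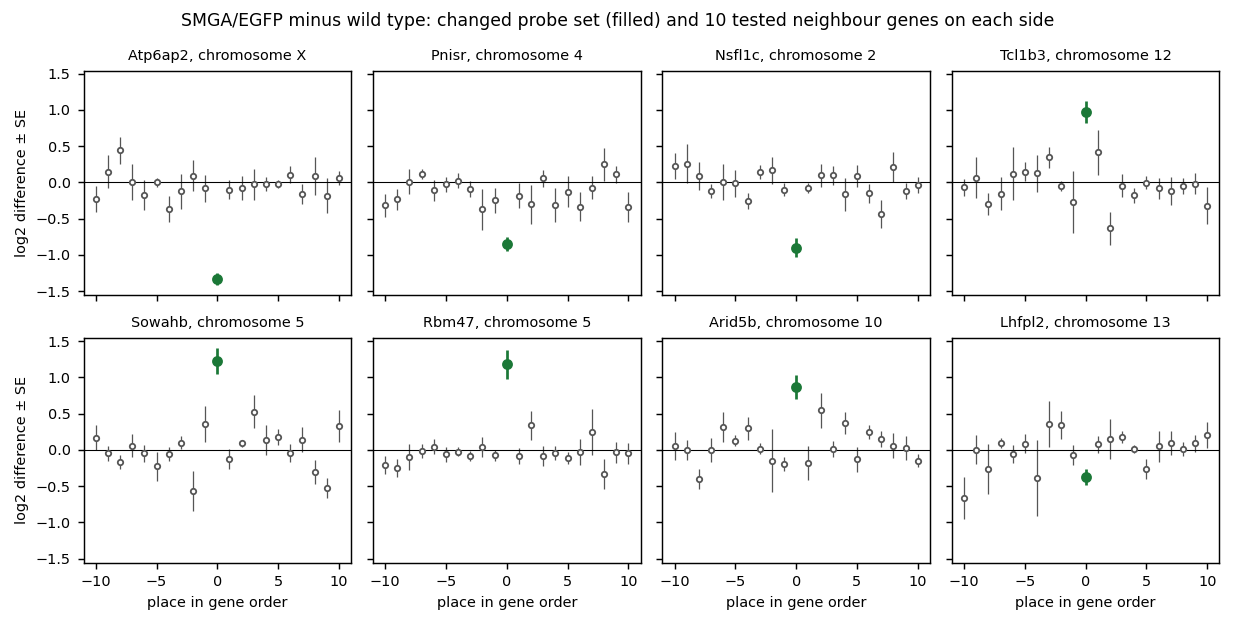
Log2 difference of SMGA/EGFP from wild type (y axis, ± SE) for the changed probe set of each gene (filled, at place 0) and for the 10 nearest genes with a tested probe set on each side (open, x axis in gene order, not to scale in bases). The filled points were chosen for their differences. The 20 neighbours of Atp6ap2 lie between -0.37 and 0.44 and those of Lhfpl2 between -0.67 and 0.35.

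Over the 12 arrays, the probe sets of other genes most like each changed probe set were named by Pearson's r among all tested probe sets with 1 symbol. The arrays share their groups and runs, so these are descriptions. For Atp6ap2 they were Agfg1 (r = 0.927, Spearman's rho = 0.462), Fgfbp1 (0.919 and 0.434) and Prr13 (0.916 and 0.713). For the first 2 of these the rank correlation was far below the linear one. For Pnisr they were Bcl2l12 (0.919 and 0.902), the changed probe set of Atp6ap2 (0.913 and 0.510) and Golga3 (0.907 and 0.755).

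Nsfl1c had the closest matches of all, Wnk1 (r = 0.961, rho = 0.958), Ttc4 (0.947 and 0.895) and Sltm (0.933 and 0.937). For Arid5b they were Chd2 (0.916 and 0.825), Mtmr3 (0.906 and 0.867) and Prrc2b (0.898 and 0.888), and for Lhfpl2 Rtl8c (0.890 and 0.769), Tmem198b (0.872 and 0.811) and Prdm16 (0.859 and 0.825). For Sowahb they were Wwp2 (0.899 and 0.797), Nipal1 (0.896 and 0.853) and Fbxo3 (0.889 and 0.874). The highest r was 0.884 for Rbm47, with Plekhf1 (rho = 0.839), ahead of Hs2st1 (0.873 and 0.832) and Washc2 (0.870 and 0.881). It was 0.850 for Tcl1b3, with Ociad1 (rho = 0.790), ahead of Foxp1 (0.849 and 0.853) and A930033H14Rik (0.847 and 0.797).

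Markers of other cell types are given here beside the members. In bulk tissue, fewer cells of a type and less RNA per cell cannot be told apart. All 6 mesothelium markers (Msln, Lrrn4, Gpm6a, Muc16, Wt1 and Upk3b, of the layer that covers the bladder) were lower in SMGA/EGFP than in wild type in value, 3 of them past limma's threshold, with a median of -1.74. Their summed intensity was 15469 to 16972 in SMGA/EGFP, 26566 to 35459 in SMAA/EYFP and 17676 to 27332 in wild type. Gpm6a was at 166 to 258 in SMGA/EGFP, 1906 to 3963 in SMAA/EYFP and 828 to 2505 in wild type, and none of the 6 was at 0.

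All 6 endothelium markers were lower in value than in wild type in SMGA/EGFP (median -0.28, 0 passed) and also in SMAA/EYFP (median -0.25, 0 passed). Their sums were 9275 to 12177 in SMGA/EGFP, 10552 to 13294 in SMAA/EYFP and 12663 to 14683 in wild type. All 6 urothelium markers were higher in value in SMGA/EGFP (median 0.13, 0 passed) and, by more, in SMAA/EYFP (median 0.26, 0 passed). Their sums were 135021 to 149393 in SMGA/EGFP, 142030 to 166563 in SMAA/EYFP and 116298 to 150495 in wild type. The 4 skeletal muscle markers summed to 59470 to 81128 in SMGA/EGFP, 57897 to 82269 in SMAA/EYFP and 64195 to 73245 in wild type. These sums mostly report Acta1, at 46825 to 68807 over all arrays. Myh3, embryonic myosin, was uneven, at 4225, 3738 and 209 in SMGA/EGFP, 10.6, 1027 and 118 in SMAA/EYFP, and 105 to 8145 in wild type. So was Myog, below the filter, at 706, 796 and 44.6 in SMGA/EGFP, 63.5, 146 and 16.1 in SMAA/EYFP, and 15.2 to 1497 in wild type.

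All 5 markers of macrophages and other leukocytes were lower in value in SMGA/EGFP than in wild type (median -0.39, 0 passed), with sums of 6600.1 to 10421 in SMGA/EGFP, 8961 to 10574 in SMAA/EYFP and 9132 to 12458 in wild type. Of the markers of neurons and Schwann cells 4 were tested, of which 3 were higher in value in SMGA/EGFP (median 0.78, 0 passed). Among them were the intermediate filament gene Prph at 1.57 ± 0.91 and the nicotinic receptor subunit Chrna3 at 1.18 ± 0.59. Both overlapped between SMGA/EGFP and the wild type of its own run. Prph was at 1957 to 3463 in SMGA/EGFP, 657 to 4301 in wild type 1 to 3 and 211 to 421 in wild type 4 to 6. For Chrna3 these ranges were 365 to 724, 198 to 860 and 92.8 to 113. Their sums were 8844 to 10845 in SMGA/EGFP, 5110.4 to 9595 in SMAA/EYFP and 4591 to 11303 in wild type. The 5 fibroblast markers had a median of -0.01 in SMGA/EGFP (2 higher, 3 lower, 0 passed) and -0.16 in SMAA/EYFP (5 lower, 0 passed). The 1 erythroid marker tested was at -0.52 in SMGA/EGFP and -0.71 in SMAA/EYFP. The part of any of these markers in the members' differences was not tested.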

How the data were processed

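RNA of 12 bladders was measured on 1-colour Affymetrix arrays with 45101 probe sets. Each deposited value is the intensity of a probe set on a linear scale, which the authors obtained with GCOS, per the submitters' processing notes. The trimmed mean was 1500.01 on every array, so each had been scaled by 1 factor. Detection calls and the genome build are not given in the sources used here. After 64 controls were left out, log2(intensity + 16) was quantile-normalized between arrays, and the 22518 probe sets with a mean above the median (log2 8.02) were fitted in limma 3.58.1 under R 4.3.3 (lmFit, eBayes with an intensity trend, two-sided, all 12 arrays, Benjamini-Hochberg adjustment, threshold 0.05). The script was tested on simulated data.

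Symbols came from GEO's platform annotation: 34945 probe sets had 1 symbol, 932 several and 9160 were not listed. Of the genes, 11730 were tested. Chromosomes, gene order, transcripts and promoter windows came from RefSeq (GRCm38.p6). The members and lists were chosen with earlier results of these data known. All probe sets of each member were named, the changed one being that of smallest p over the 4 comparisons. Other genes named were the 3 probe sets of highest r, the list members that passed or else the 2 of smallest p, and the nearest tested neighbours. The alternatives were other scalings, pseudocounts, filters, fits and left-out arrays.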

Additional observations from a re-analysis of the deposited data

Results flagged for a closer look

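Groups of 4 to 10 arrays were checked for an array far from the others in all 21 tested member probe sets, which with these groups meant wild type, and chance alone marks about 1 in 20. For Sowahb 1438408_at, wild type 2 had an intensity of 566, the next highest being 414, a gap of 0.641 of the group's range. For Rbm47 1423411_at, wild type 4, the array without a male profile, had 1306, the next highest being 915, a gap of 0.823 of the range.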

How the results depend on the processing

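Atp6ap2 1439456_x_at and Pnisr 1453186_at passed in SMGA/EGFP against wild type in all 12 fits that left out 1 array and all 11 other settings. Of those, Nsfl1c passed in 8 and 6, and Tcl1b3 in 2 and 5. Sowahb passed in 7 of 12 and in 7 of the 10 other settings that kept it, and Rbm47 1438021_at passed as deposited, with pseudocount 64, with the record run as a block or within it (1.43), and without wild type 6. The 14 probe sets that passed in SMGA/EGFP against wild type became 5 with the filter at the 75th percentile, 9 with only the arrays compared and 6 to 20 without 1 array (9 without wild type 4). The 18 in SMGA/EGFP against SMAA/EYFP became 10 with that filter, 2 with the run as a block and 4 to 21 without 1 array. With arrays centred on their median, 5 passed in SMAA/EYFP against wild type in place of 0, all higher and none a member, and 0 in the mean of both groups in place of 1; the median of all probe sets in SMGA/EGFP against SMAA/EYFP was then -0.12, against -0.02. Of those passing in SMGA/EGFP against wild type, 14.3% were higher, 25.0% as deposited or with pseudocount 64 and 0% with the 75th percentile filter or only the arrays compared; between the transgenic groups it was 11.1%, 0% when centred, without a trend or with the block, and 33.3% of 24 with only the arrays compared. Signs turned in small values that did not pass. Atp6ap2 1437688_x_at in SMAA/EYFP against wild type was at 0.011 when centred, 0.0098 with the run as a block or within it, and -0.088 to 0.015 without 1 array. Pnisr 1435080_x_at was there at -0.13 to 0.043 without 1 array. Lhfpl2 1454847_at in SMGA/EGFP against SMAA/EYFP was at -0.073 when centred, -0.19 with the block, and -0.051 to 0.081 without 1 array. The difference within arrays in SMAA/EYFP against wild type was -0.0052 for Arid5b with pseudocount 64, and without 1 array -0.047 to 0.080 for Arid5b, -0.040 to 0.14 for Pnisr and -0.22 to 0.17 for Rbm47. The causes were not tested. No paired analysis was possible because the labels give no replicate numbers. Signal over background limits the 4 probe sets below the filter.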
